A study of Mus musculus with 20 samples.

Results

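Flavin-containing monooxygenases were examined through 4 genes, Fmo1, Fmo2, Fmo4 and Fmo5, in mouse liver. The 4 genes were taken by symbol from the deposited count table, where each had an intact line among 23993 such lines, and all 4 were among the 10207 genes that passed the filter on low counts. RNA came from the livers of 20 individual female mice, 5 in each of 4 groups, and each library came from 1 mouse. The groups were mice on a diet with oral combined contraceptives (OC) that were sedentary (labelled OC.Sed), sedentary mice on vehicle (veh) diet (Con.Sed), OC mice with voluntary wheel running (VWR; labelled OC.VWR) and vehicle mice with wheel running (Con.VWR). The labels give no strain, age, dose or duration. Total counts over intact lines ran from 10883936 to 16134618 per library. Albumin (Alb), a defining hepatocyte product, averaged 80023 ± 8540 counts per 1000000 counts of the scaled library (CPM) in OC.Sed livers and 136772 ± 12554 CPM in Con.Sed livers (SD, n = 5 each), and all 7 hepatocyte markers with an intact line were detected. Within its group, Con.Sed replicate 2 had the highest summed level of 5 of 7 cell type marker lists and the lowest Fmo1 and Fmo2. It also had the fewest total counts of all libraries (10883936). Its gap to the next liver was 0.686 of the group's range for Fmo1 and 0.559 for Fmo2. Both were under the 0.71 used below to flag a liver.

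Flavin-containing monooxygenases are enzymes of the endoplasmic reticulum that hold FAD, take electrons from NADPH and transfer an oxygen atom to soft nucleophiles, mainly the nitrogen or sulfur of drugs, dietary amines and thiols. They act beside the cytochromes P450 in the first phase of xenobiotic metabolism. Fmo1 oxidises many tertiary amines and can convert hypotaurine to taurine. Fmo2 is best known as the form of the lung, Fmo4 is a little studied form, and Fmo5 is an abundant liver form whose human counterpart favours Baeyer-Villiger oxidation of carbonyl compounds over the oxidation of amines.

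Fmo4 (ENSMUSG00000026692), Fmo1 (ENSMUSG00000040181) and Fmo2 (ENSMUSG00000040170) lie in that order on the minus strand of chromosome 1, at chr1:162793188-162813972, chr1:162829561-162866610 and chr1:162874317-162898726 (GENCODE vM21, GRCm38). Fmo5 (ENSMUSG00000028088) lies apart from them on the plus strand of chromosome 3, at chr3:97628804-97655282. No other annotated gene overlapped the span of any of the 4. Sequence before the start site is shown for Fmo2 and Fmo4, which lie on either side of Fmo1 and were both lower on OC, and for Fmo5, which was higher. It was taken from RefSeq (GRCm38.p6), which matched 3 of the 4 genes (not Fmo1), and is printed in the direction of transcription. The Fmo2 stretch covers chr1:162898759-162899008 on the minus strand and the Fmo4 stretch chr1:162812654-162812799 on the minus strand. RefSeq has 2 start windows for Fmo2, of which 1 is shown. The RefSeq start of Fmo4 (position 162812549) lies inside the span of the gene, so the Fmo4 stretch is intronic in GENCODE transcripts that start further upstream. The Fmo5 stretch covers chr3:97628769-97628803 on the plus strand. Bases within annotated exons were left out, which removed 104 of the 250 bases before the Fmo4 start and 215 of those before the Fmo5 start.
Fmo2: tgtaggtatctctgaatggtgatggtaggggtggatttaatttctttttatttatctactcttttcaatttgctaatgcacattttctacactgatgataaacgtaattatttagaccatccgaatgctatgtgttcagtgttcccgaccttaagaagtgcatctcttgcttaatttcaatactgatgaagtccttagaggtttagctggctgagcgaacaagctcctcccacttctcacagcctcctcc
Fmo4: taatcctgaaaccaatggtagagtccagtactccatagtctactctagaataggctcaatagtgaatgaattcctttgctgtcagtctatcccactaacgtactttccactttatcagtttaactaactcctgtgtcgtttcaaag
Fmo5: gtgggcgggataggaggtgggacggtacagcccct

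In the full windows of 250 bases, 6 motifs were searched on both strands. The nuclear receptor half-site AGGTCA occurred once before Fmo4, on the reverse strand 75 to 70 bases before the start, in a part that is not printed. This motif occurred in 14.0% of 32851 such windows across the genome. The TATA box letters TATAAA occurred once before Fmo5, on the reverse strand 195 to 190 bases before the start and also outside the printed part, against 12.4% of all windows. The full oestrogen response element GGTCANNNTGACC (0.0639% of windows), the STAT site TTCNNNGAA (7.02%), the HNF1 half-site GTTAAT (6.43%) and the aryl hydrocarbon receptor core GCGTG (28.2%) had no match in the 3 windows. No motif match overlapped another, and the printed stretches hold none.

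The 4 genes covered a wide range of levels. Per kilobase of merged exons, the group means lay between 202 and 312 CPM per kb for Fmo5, between 48.8 and 70.7 for Fmo1, between 11.3 and 23.7 for Fmo2 and between 2.55 and 4.49 for Fmo4. The order Fmo5, Fmo1, Fmo2, Fmo4 was the same in all 20 libraries. Neighbours in that order did not overlap over the 20 libraries, since the lowest Fmo5 library (157.7 CPM per kb) was above the highest Fmo1 library (77.5). The lowest Fmo1 library (35.6) was in turn above the highest Fmo2 library (29.8), and the lowest Fmo2 library (6.13) was above the highest Fmo4 library (5.52). With the longest transcript in place of merged exons the order also held in all 20 libraries, but the level of Fmo1 depended strongly on this choice, with group means of 99.0 to 143.4 CPM per kb. By mean CPM without a length correction, Fmo5 ranked 76th of 10207 genes in OC.Sed livers, 90th in Con.Sed livers, 69th in OC.VWR livers and 92nd in Con.VWR livers. The number of counts behind a value was 11670 to 37428 per library for Fmo5, 2764 to 7296 for Fmo1, 467 to 2364 for Fmo2 and 110 to 306 for Fmo4.

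**Figure D1:**
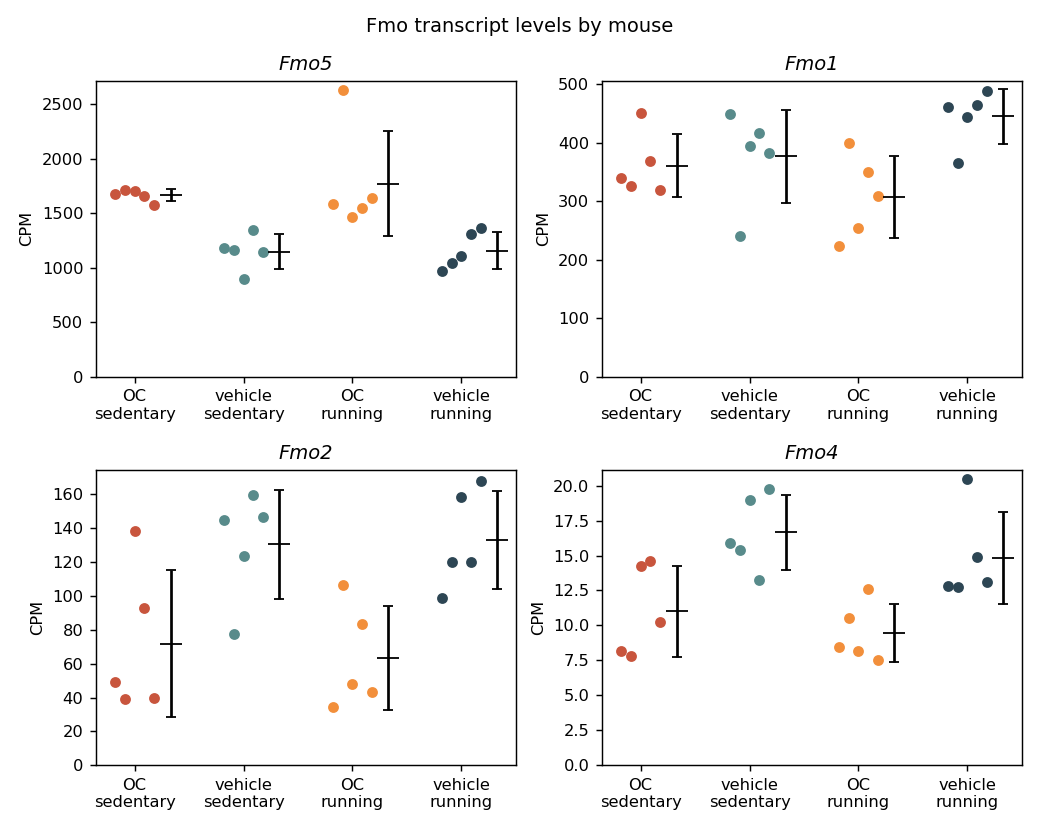
CPM of each gene (vertical axes, from 0) in each of the 20 livers, by group (points), with the mean and SD of 5 livers beside them (black). Every Fmo5 point on OC lies above every point on vehicle, while Fmo2 and Fmo4 are mostly lower on OC.

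The contraceptive diet moved these genes in opposite directions. Averaged over activity, Fmo5 was higher on OC by 0.58 on the log2 scale (SE 0.10, 1.49-fold; edgeR quasi-likelihood, Benjamini-Hochberg adjusted p = 0.000319). Fmo2 and Fmo4 were lower, with log2 fold changes of -0.97 (SE 0.24, adjusted p = 0.00507) and -0.62 (SE 0.13, adjusted p = 0.00188). Fmo1 did not pass the threshold of 0.05 (log2 fold change -0.30, SE 0.11, adjusted p = 0.0642). These 3 calls out of 4 genes stand beside a background of 2338 genes called among 10207 (22.9%), of which 1212 (11.9%) were higher and 1126 (11.0%) lower. When libraries were scaled by their totals alone the split was 2559 higher and 599 lower. The calls of Fmo5, Fmo2 and Fmo4 averaged over activity held in all 28 alternatives tried. Fmo1 passed in 6 of the 28. Over all 28 its log2 fold change ran from -0.41 to -0.18 and its adjusted p up to 0.222. Fmo1 passed in DESeq2 (adjusted p = 0.0366) and in limma voom with sample weights (log2 fold change -0.41, adjusted p = 0.00204). It also passed when OC.Sed replicate 3, Con.Sed replicate 2, OC.VWR replicate 2 or Con.VWR replicate 2 was left out (adjusted p = 0.0318, 0.00973, 0.0256 and 0.0489).

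**Figure D2:**
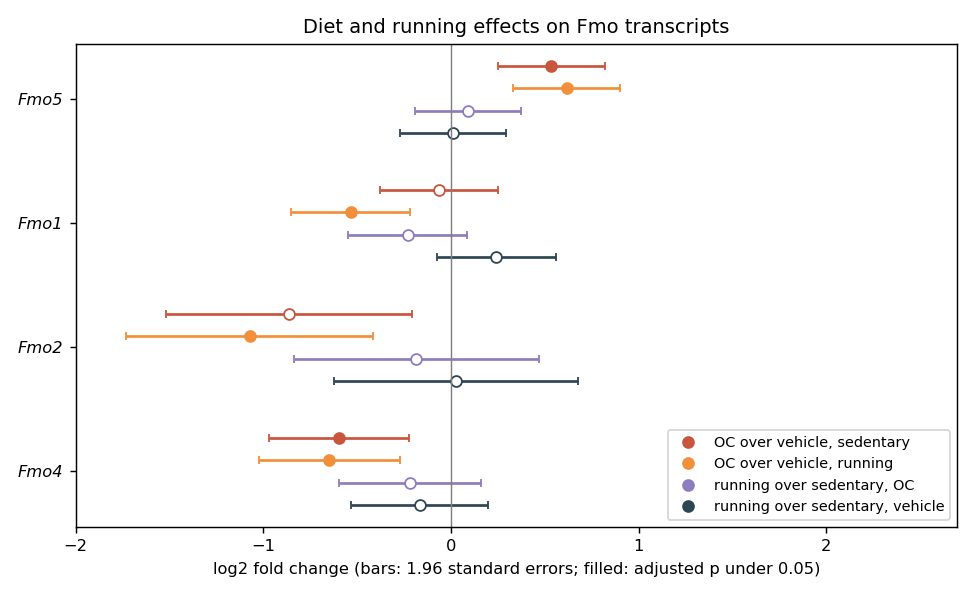
Fitted log2 fold changes of the 4 genes (horizontal axis) in 4 contrasts (colours), with bars of 1.96 standard errors; filled points passed an adjusted p of 0.05. Points for OC over vehicle lie right of 0 for Fmo5 (0.54 and 0.62) and left of 0 for Fmo2 (-0.86 and -1.07) and Fmo4 (-0.60 and -0.65), and no running contrast passed.

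Fmo5 had the clearest separation between the diets. In sedentary mice it had 1672, 1714, 1704, 1653 and 1576 CPM in OC livers, against 1184, 1166, 895.2, 1346 and 1146 CPM in vehicle livers. The 5 OC livers lay close together (coefficient of variation 3.29%), those on vehicle were more spread (14.1%), and the groups did not overlap. The fitted difference was 0.54 on the log2 scale (SE 0.15, 1.45-fold, adjusted p = 0.0165), in a contrast where 1665 of 10207 genes (16.3%) were called, 930 (9.11%) of them higher (1712 higher and 360 lower with library totals alone). Without vehicle replicate 2 the log2 fold change was 0.54 (adjusted p = 0.0221).

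In running mice Fmo5 had 1583, 2625, 1461, 1551 and 1639 CPM in OC livers, against 966.2, 1041, 1104, 1308 and 1360 CPM in vehicle livers. OC replicate 2 stood far above its group, and again no OC liver reached down to the vehicle range. This gave a log2 fold change of 0.62 (SE 0.15, 1.53-fold, adjusted p = 0.0077), with 1343 of 10207 genes (13.2%) called and 724 (7.09%) of them higher (1390 higher and 335 lower with library totals alone). Without OC replicate 2 it was 0.43 (adjusted p = 0.0155). All 10 OC livers were above all 10 vehicle livers. How many of all 10207 genes separated the diets as fully was not counted, here or for Fmo4 below.

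Fmo2 was lower on OC, with a wide spread between mice. In sedentary mice it had 49.1, 39.3, 138.0, 93.1 and 39.6 CPM in OC livers, against 144.8, 77.6, 123.3, 159.3 and 146.7 CPM in vehicle livers. In OC livers 3 values lay below every vehicle value, while replicates 3 and 4 lay inside the vehicle range. The coefficient of variation was 60.1% in OC livers and 24.7% in vehicle livers. A log2 fold change of -0.86 (SE 0.33) did not pass (adjusted p = 0.0832). It passed in limma voom (log2 fold change -1.01, adjusted p = 0.0444), in voom with sample weights (-1.35, adjusted p = 0.00373), without OC replicate 3 (-1.24, adjusted p = 0.0135) and without vehicle replicate 2 (-0.999, adjusted p = 0.0495).

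In running mice Fmo2 had 34.4, 106.4, 48.3, 83.6 and 43.2 CPM in OC livers, against 98.9, 120.1, 158.2, 119.6 and 167.4 CPM in vehicle livers. OC replicate 2 overlapped the lowest vehicle liver, and the other 4 OC livers were below all 5 vehicle livers. The log2 fold change was -1.07 (SE 0.34, 2.10-fold lower, adjusted p = 0.0382), where 619 genes (6.06%) were called lower. The call was lost when OC replicate 1, 3 or 5 was left out (adjusted p = 0.111, 0.0993 and 0.0772) or vehicle replicate 3, 4 or 5 (0.0835, 0.0579 and 0.0788). In these fits the log2 fold change ran from -1.10 to -0.92. The call was also lost when table lines whose counts had been displaced by 1 column were moved back and added to the tested genes (-0.97, adjusted p = 0.0801).

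Fmo4 was lower on OC in both activity groups at a low level. In sedentary mice it had 8.16, 7.80, 14.3, 14.6 and 10.2 CPM in OC livers, against 15.9, 15.4, 18.9, 13.2 and 19.8 CPM in vehicle livers. OC replicates 3 and 4 were the high ones, and they overlapped only vehicle replicate 4. The log2 fold change was -0.60 (SE 0.19, 1.51-fold lower, adjusted p = 0.0365), in a contrast where 735 genes (7.20%) were called lower. The call was lost with library totals as the only scaling (-0.47, adjusted p = 0.0665), in a fit of these 2 groups alone (adjusted p = 0.0575), and without OC replicate 1, 2 or 5 (0.0975, 0.0987 and 0.0759) or vehicle replicate 3 or 5 (0.0716 and 0.0803). Without vehicle replicate 2 it held (-0.62, adjusted p = 0.0408).

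In running mice Fmo4 had 8.46, 10.5, 8.20, 12.6 and 7.55 CPM in OC livers, against 12.9, 12.8, 20.5, 14.9 and 13.1 CPM in vehicle livers. The groups did not overlap, although the highest OC liver came close to the lowest vehicle livers, and vehicle replicate 3 stood above its group. This gave a log2 fold change of -0.65 (SE 0.19, 1.57-fold lower, adjusted p = 0.0289). The call was lost without OC replicate 1, 3 or 5 (adjusted p = 0.0754, 0.0774 and 0.0576) or vehicle replicate 3 or 4 (0.0980 and 0.0524), and the log2 fold change without vehicle replicate 3 was -0.50.

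Fmo1, the second most abundant of the 4, passed the test on OC in running mice. There it had 224.1, 399.3, 254.6, 350.7 and 308.9 CPM in OC livers, against 462.1, 366.2, 444.4, 465.5 and 488.8 CPM in vehicle livers. Only OC replicate 2 reached the vehicle range. Fmo1 was lower on OC by a log2 fold change of -0.53 (SE 0.16, 1.45-fold lower, adjusted p = 0.0330). The call was lost with library totals alone (-0.42, adjusted p = 0.0631), with displaced lines moved back (-0.50, adjusted p = 0.0672), and without OC replicate 1 or 3 (0.102 and 0.0950) or vehicle replicate 1, 3, 4 or 5 (0.0608, 0.0611, 0.0688 and 0.0664). In the fits without 1 of these livers the log2 fold change ran from -0.53 to -0.44.

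In sedentary mice Fmo1 had 339.7, 325.6, 451.3, 368.7 and 318.8 CPM in OC livers, against 449.0, 240.3, 393.9, 417.0 and 383.4 CPM in vehicle livers. The groups overlapped throughout, with the lowest value in vehicle replicate 2. The fitted difference was -0.06 on the log2 scale (SE 0.16, 95% interval -0.38 to 0.25, adjusted p = 0.827), and -0.19 without vehicle replicate 2 (adjusted p = 0.404). The difference between the diet effects in running and in sedentary mice was -0.47 on the log2 scale (SE 0.23), with an unadjusted p of 0.0511 in edgeR and an adjusted p of 0.286, so a difference by activity was not shown. For Fmo2, Fmo4 and Fmo5 the same difference was -0.21 (SE 0.47), -0.05 (SE 0.27) and 0.08 (SE 0.20).

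Wheel running moved none of the 4 genes past the threshold on either diet. On OC diet, running minus sedentary gave log2 differences of 0.09 (95% interval -0.19 to 0.37) for Fmo5, -0.23 (-0.55 to 0.09) for Fmo1, -0.18 (-0.84 to 0.47) for Fmo2 and -0.22 (-0.60 to 0.16) for Fmo4. On vehicle diet they were 0.01 (-0.27 to 0.29) for Fmo5, 0.24 (-0.07 to 0.56) for Fmo1, 0.03 (-0.62 to 0.68) for Fmo2 and -0.17 (-0.53 to 0.20) for Fmo4. The intervals for Fmo2 leave room for a change of more than 1.5-fold in either direction on vehicle. Among all 10207 genes edgeR called 0 (0%) in either running contrast and 0 (0%) for the interaction. At an unadjusted p under 0.05 there were 694 genes for running on OC, 1414 for running on vehicle and 1802 for the interaction. DESeq2 called 1, 42 and 119 genes in these contrasts, limma voom called 0 in each, and voom with sample weights called 4 for the interaction.

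Since the genes moved in opposite directions, the ratio of their counts within a library, which needs no scaling between libraries, was compared over 6 pairs in each activity group. The ratio of Fmo5 to Fmo4 had a geometric mean of 155.9 in OC livers and 68.9 in vehicle livers of sedentary mice, and of 185.2 in OC livers and 78.5 in vehicle livers of running mice. Neither pair of groups overlapped, and the exact permutation test gave an adjusted p of 0.0190 over the 12 ratio tests in both. The smallest unadjusted p this test allows with 5 against 5 livers is 0.00794.

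Fmo5 to Fmo2 was 26.4 in OC livers and 8.99 in vehicle livers of sedentary mice (exact permutation test, adjusted p = 0.0317), and 29.95 in OC livers and 8.79 in vehicle livers of running mice (adjusted p = 0.0190). Fmo5 to Fmo1 was 4.65 in OC livers and 3.09 in vehicle livers of sedentary mice (exact permutation test, adjusted p = 0.0408), and 5.74 in OC livers and 2.58 in vehicle livers of running mice (adjusted p = 0.0190). In running mice neither ratio overlapped between the diets, and in sedentary mice both did.

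Within the chromosome 1 cluster, Fmo1 to Fmo2 was 5.69 in OC livers and 2.91 in vehicle livers of sedentary mice, without overlap (exact permutation test, adjusted p = 0.0190). In running mice it was 5.22 in OC livers and 3.40 in vehicle livers, which did not pass (adjusted p = 0.0595) but passed without OC.VWR replicate 2 (0.0423) or Con.VWR replicate 1 (0.0476). Fmo1 to Fmo4 (adjusted p = 0.0635 in sedentary and 0.651 in running mice) and Fmo4 to Fmo2 (0.260 and 0.0762) did not pass in the exact permutation test. Fmo4 to Fmo2 in running mice passed without OC.VWR replicate 2 (adjusted p = 0.0159). The calls of Fmo1 to Fmo2, Fmo5 to Fmo1 and Fmo5 to Fmo2 in sedentary mice were each lost when single livers were left out (adjusted p = 0.0595 to 0.0833). This held without any one of the 5 Con.Sed livers for Fmo1 to Fmo2, without Con.Sed replicate 1, 3, 4 or 5 for Fmo5 to Fmo2, and without any one of these 4 or OC.Sed replicate 1, 2, 4 or 5 for Fmo5 to Fmo1. For Fmo1 to Fmo2 the difference in log2 ratio in these comparisons was 0.927 to 0.999, against 0.966 with all livers.

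**Figure D3:**
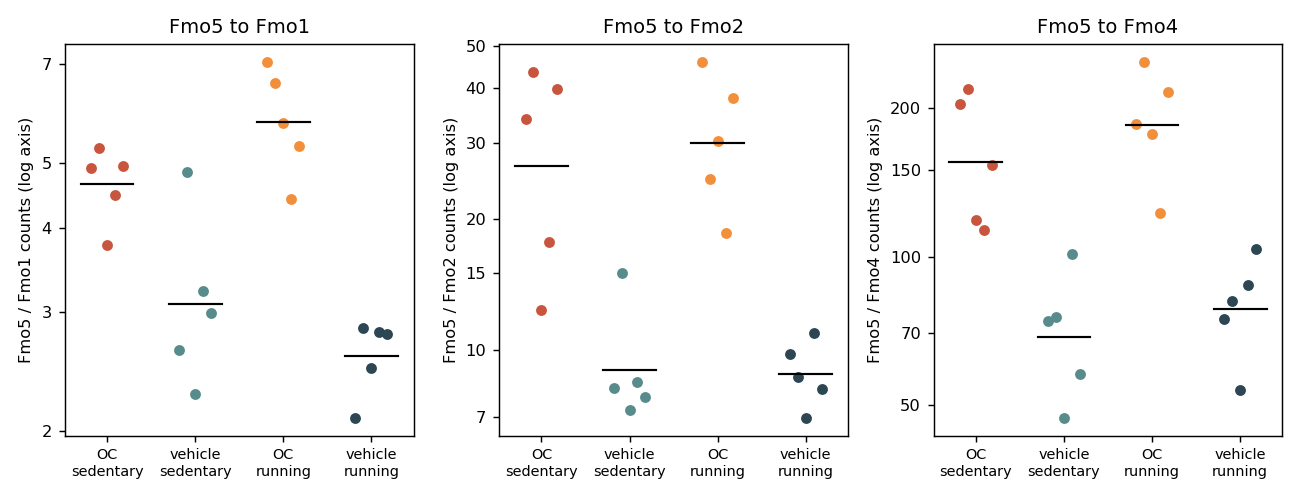
Ratio of Fmo5 counts to Fmo1, Fmo2 and Fmo4 counts in each liver (log axes), by group, with the geometric mean as a line. The Fmo5 to Fmo4 ratio separates OC livers from vehicle livers in both activity groups, and all 3 ratios do so in running mice.

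Between mice of one group, Fmo2 varied together with Fmo1, and on OC also with Fmo4. In OC.Sed livers replicates 3 and 4 were the 2 highest for Fmo1, Fmo2 and Fmo4 alike, and in OC.VWR livers replicates 2 and 4 were. In the vehicle groups no pair of livers was highest for all 3 genes. Over the 20 livers, deviations of log2 CPM from the group means had a Pearson correlation of 0.795 for Fmo1 with Fmo2, 0.674 for Fmo2 with Fmo4 and 0.396 for Fmo1 with Fmo4. For Fmo2 with Fmo4 it was 0.845 over the 10 OC livers and 0.224 over the 10 vehicle livers. For Fmo1 with Fmo2 these values were 0.883 and 0.748, and for Fmo1 with Fmo4 they were 0.629 and 0.080. Over the 20 livers Fmo5, on chromosome 3, had 0.408 with Fmo1, 0.433 with Fmo2 and -0.02 with Fmo4. Its values with Fmo1 and Fmo2 were no lower than that of Fmo1 with Fmo4. Over the 10 OC livers alone Fmo5 had 0.622 with Fmo1, 0.472 with Fmo2 and 0.160 with Fmo4. Over the 10 vehicle livers it had 0.163, 0.393 and -0.311. These are descriptions, since values of one liver share a library and its scaling, and the difference between the diets was not tested.

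**Figure D4:**
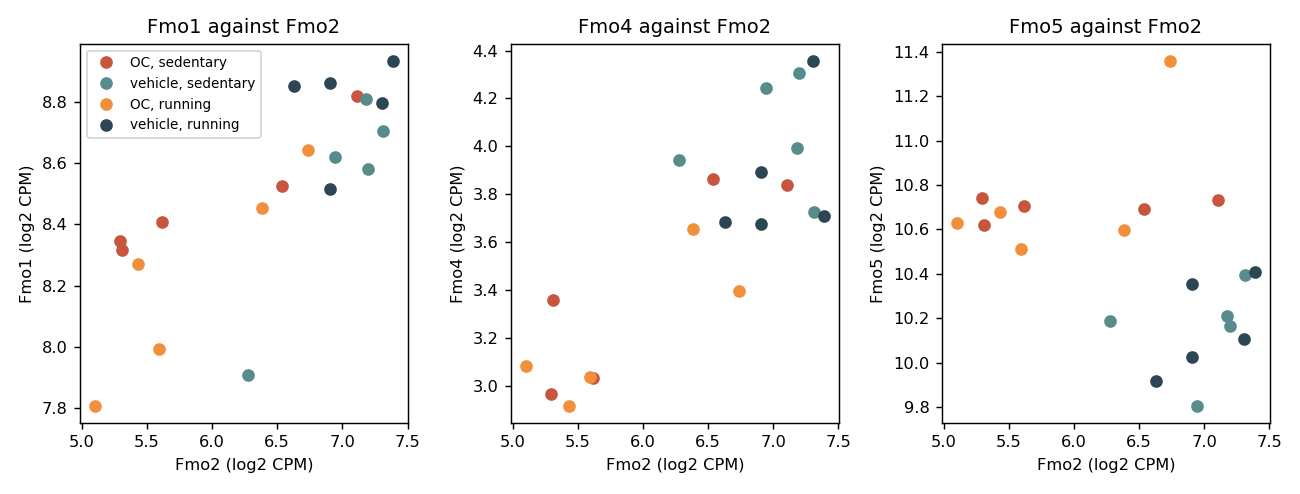
Log2 CPM of Fmo1, Fmo4 and Fmo5 (vertical axes) against log2 CPM of Fmo2 (horizontal axis) in each of the 20 livers, coloured by group. Fmo1 and Fmo4 are high where Fmo2 is high, also among OC livers, whereas the OC livers form an upper band for Fmo5.

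Candidates were 8940 tested genes averaging 1 CPM or more, leaving out the members and symbols of Gm with digits or ending in Rik. The 3 candidates whose log2 CPM followed each member most closely over the 20 livers were ranked by Pearson correlation. For Fmo5 they were Rhbdd2 (0.897), a rhomboid domain protein, Rapgef4 (0.894), a cAMP-regulated exchange factor, and Egfr (0.892), the epidermal growth factor receptor. For Fmo1 they were Pank3 (0.929), a pantothenate kinase of coenzyme A synthesis, Pdlim5 (0.926), a cytoskeletal adaptor, and Iqgap2 (0.901), a scaffold protein. For Fmo2 they were Tox (0.935), an HMG-box nuclear protein, and the zinc finger genes Hic2 (0.916) and Gzf1 (0.907). For Fmo4 they were Cda (0.907), which deaminates cytidine, Nipal1 (0.866), a magnesium transporter, and Fahd1 (0.860), a mitochondrial hydrolase. Part of each value comes from the diet difference itself. With group means removed the values were 0.699 to 0.755 for Fmo5, 0.883 to 0.896 for Fmo1, 0.840 to 0.876 for Fmo2 and 0.652 to 0.858 for Fmo4.

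Other enzymes that oxidise or reduce xenobiotics outside the P450 system moved both ways. Over this and the later lists, 142 of 268 listed genes had an intact line and 133 were tested. Most untested genes thus lacked an intact line, and their levels were not examined. Of 12 tested genes out of 36 listed, 4 rose, 3 fell and 5 did not pass on OC averaged over activity, where 22.9% of all genes were called, with a median log2 fold change of -0.10 against 0.00 over all genes. The aldehyde oxidases Aox1 and Aox3 rose by 0.53 (SE 0.09, adjusted p = 0.000242) and 0.69 (SE 0.13, adjusted p = 0.000441). Aox3 averaged 424 ± 38.7 CPM in OC.Sed livers and 200.0 ± 46.9 CPM in Con.Sed livers, and 306 ± 40.0 CPM in OC.VWR livers and 249 ± 82.4 CPM in Con.VWR livers (SD, n = 5 each). It passed in sedentary mice (1.09, adjusted p = 0.000412) and did not in running mice (0.30, adjusted p = 0.286). Cbr1, a carbonyl reductase, rose by 0.57 averaged over activity (adjusted p = 0.000277) and Maob, a monoamine oxidase, fell by 0.44 (adjusted p = 0.00491). Both passed in running mice (0.87 and -0.78, adjusted p = 0.000309 and 0.00166), while in sedentary mice the log2 fold changes were 0.27 for Cbr1 and -0.10 for Maob (adjusted p = 0.196 and 0.700). The difference between the activity groups did not pass for Aox3, Cbr1 or Maob (interaction, adjusted p = 0.201 each). The alcohol dehydrogenase Adh1 (log2 fold change -0.09, adjusted p = 0.476) and Cbr4 (-0.08, adjusted p = 0.487) did not pass. In sedentary mice 3 of the 12 rose and 0 fell (16.3% of all genes called), and in running mice 2 rose and 1 fell (13.2% of all genes called).

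Conjugating enzymes, which take over products of the first phase, were tested in 12 of 52 listed genes, the 12 with an intact line. Averaged over activity 2 rose, 3 fell and 7 did not pass, against 11.9% of all genes higher and 11.0% lower, with a median of -0.17 on the log2 scale. Tpmt, a thiopurine methyltransferase, averaged 61.3 ± 7.03 CPM in OC.Sed livers and 25.9 ± 5.33 CPM in Con.Sed livers, and 63.1 ± 9.45 CPM in OC.VWR livers and 29.0 ± 6.06 CPM in Con.VWR livers (SD, n = 5 each). Its averaged log2 fold change was 1.18 (SE 0.11, adjusted p = 4.28e-08). Mgst3, a microsomal glutathione transferase, fell by 0.89 (adjusted p = 5.34e-06), and Nat1, an arylamine N-acetyltransferase, fell by 0.75 (adjusted p = 0.00642). Gstk1 fell by 0.23 (adjusted p = 0.00454), a call lost with library totals alone (-0.11, adjusted p = 0.0950). Inmt (0.06, adjusted p = 0.781) and Gstz1 (-0.20, adjusted p = 0.102) did not pass.

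Genes of taurine and sulfur amino acid metabolism bear on the hypotaurine that Fmo1 can oxidise. Of 12 tested genes out of 21 listed, 1 rose, 2 fell and 9 did not pass averaged over activity, a share near the 22.9% of all genes called, with a median of -0.06. Csad, which makes hypotaurine by decarboxylating cysteine sulfinate, averaged 385 ± 83.8 CPM in OC.Sed livers and 89.8 ± 78.9 CPM in Con.Sed livers. It averaged 323 ± 75.1 CPM in OC.VWR livers and 65.3 ± 25.1 CPM in Con.VWR livers (SD, n = 5 each). Its averaged log2 fold change was 2.20 (SE 0.26, adjusted p = 2.83e-06). Cbs, which commits homocysteine to cysteine synthesis, fell by 0.46 (adjusted p = 0.00540). Mpst, a mercaptopyruvate sulfurtransferase, fell by 0.25 (adjusted p = 0.0125), which was lost with library totals alone (-0.13, adjusted p = 0.111). Gnmt (-0.24, adjusted p = 0.211) and Ahcy (0.01, adjusted p = 0.970) did not pass.

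Choline, betaine and one-carbon genes were tested in 8 of 14 listed. Averaged over activity 0 rose, 3 fell and 5 did not pass, against 11.0% of all genes lower, with a median of -0.23. Chdh, the choline dehydrogenase, fell by 0.48 (SE 0.08, adjusted p = 0.000193) and Chka, a choline kinase, fell by 0.83 (SE 0.23, adjusted p = 0.0127). The second choline kinase, Chkb, fell by 0.31 (adjusted p = 0.0321), and this call was lost in 10 of 28 alternatives (adjusted p up to 0.179). Sardh (-0.24, adjusted p = 0.0823) and Bhmt (0.08, adjusted p = 0.831) did not pass.

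The cofactors of these enzymes were covered by short lists, again averaged over activity and beside 22.9% of all genes called. Of 9 tested genes of NADPH supply (16 listed), 1 rose, 2 fell and 6 did not pass, with a median of 0.11. Nnt, the mitochondrial transhydrogenase, fell by 0.45 (SE 0.07, adjusted p = 7.46e-05). G6pdx, the first enzyme of the pentose phosphate pathway, fell by 0.55 (adjusted p = 0.0339) and NAD kinase Nadk rose by 0.20 (adjusted p = 0.0497), calls lost in 12 and 19 of 28 alternatives. H6pd (0.20, adjusted p = 0.153) and Tkt (0.17, adjusted p = 0.278) did not pass. Of 5 tested genes of riboflavin and FAD metabolism (10 listed), 0 rose, 2 fell and 3 did not pass, with a median of -0.10. Rfk, the riboflavin kinase of FMN synthesis, fell by 0.31 (SE 0.06, adjusted p = 0.00135), and Enpp1, an ectonucleotide pyrophosphatase, fell by 0.41 (adjusted p = 0.000364). Blvrb (-0.10, adjusted p = 0.510) and Enpp3 (0.09, adjusted p = 0.616) did not pass.

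Of 16 listed targets of the xenobiotic sensors AHR and NRF2, 7 had an intact line and 6 were tested. The listed genes without an intact line were not examined. On OC averaged over activity edgeR called 0 of the 6, with a median of 0.05. There were 0 at an unadjusted p under 0.05, 0 in DESeq2, 0 in limma voom and 2 in voom with sample weights. Osgin1 (0.27, adjusted p = 0.322) and Txnrd1 (-0.09, adjusted p = 0.427) were the most abundant. Of 16 tested transcription factors of hepatocyte genes (28 listed), 4 rose, 2 fell and 10 did not pass averaged over activity (22.9% of all genes called), with a median of -0.03. In sedentary mice 5 rose and 1 fell (median 0.12, 16.3% of all genes called), and in running mice 1 rose and 4 fell (median -0.19, 13.2% called). The interaction passed for 0 of the 16, as for 0 of all 10207 genes, so a difference by activity was not shown. Stat5a, a mediator of growth hormone and prolactin signals, averaged 52.0 ± 12.8 CPM in OC.Sed livers and 18.4 ± 3.72 CPM in Con.Sed livers (SD, n = 5 each; averaged log2 fold change 1.59, SE 0.17, adjusted p = 6.21e-07). Ahr, the aryl hydrocarbon receptor, rose by 0.53 (adjusted p = 0.00543). Cux2, a homeobox factor with higher expression in female than male mouse liver, fell by 1.52 (SE 0.32, adjusted p = 0.00141), and Ppara, a fatty acid sensor, fell by 0.54 (adjusted p = 0.00534). Rxra (-0.12, adjusted p = 0.344) and Foxo1 (-0.06, adjusted p = 0.764) did not pass.

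Markers of the cell types in a liver sample were set beside these changes, since in bulk tissue fewer cells of a type and less RNA per cell cannot be told apart. Of 10 tested markers of stellate cells and fibroblasts (15 listed), 0 rose, 9 fell and 1 did not pass on OC averaged over activity (11.0% of all genes lower), with a median of -0.68. Reln, Ecm1, Lrat and Dpt fell by 0.71, 0.63, 1.02 and 1.33 (adjusted p = 0.000276, 0.000282, 0.000674 and 0.00148). The marker that did not pass, Des, had a log2 fold change of 0.29. It was at 1.01 in sedentary mice and -0.43 in running mice, passing in neither. Leaving out single libraries moved the sedentary value of Des between -0.52 and 1.24. In sedentary mice 9 fell (median -0.675, with 7.20% of all genes lower) and in running mice 4 did (median -0.725, with 6.06% lower). The interaction passed for 0 of the 10, as for 0 of all 10207 genes. Their summed level was 372 to 626 CPM in OC.Sed livers and 599 to 935 CPM in Con.Sed livers, and 368 to 574 CPM in OC.VWR livers and 563 to 741 CPM in Con.VWR livers. In OC.Sed livers the 2 highest sums, 626 and 584 CPM, were in replicates 4 and 3, the livers with the highest Fmo1, Fmo2 and Fmo4. In OC.VWR livers they were in replicates 1 and 2, and replicate 4 had the lowest sum. Endothelial sums in OC.Sed livers were also highest in replicates 4 and 3 (459.2 and 458.9 CPM). In OC.VWR livers the lowest endothelial sum was in replicate 4 (269.8 CPM). Hepatocyte sums were highest in replicates 4 and 1 of OC.Sed, and in replicates 2 and 4 of OC.VWR (119181 and 114014 CPM). None of the stellate and fibroblast markers was at 0, and the part of any of these cell types in the lower Fmo2 and Fmo4 was not tested.

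Hepatocyte markers moved both ways on OC. Of 7 tested (10 listed) 1 rose, 4 fell and 2 did not pass. This count, and those of the other cell types below, averaged over activity, stand beside 11.9% of all genes higher and 11.0% lower. Alb, Ttr and Apoa1 fell by 0.78, 0.40 and 0.37 (adjusted p = 8.49e-06, 0.00233 and 0.00671), and Tat, a tyrosine aminotransferase, rose by 0.68 (adjusted p = 0.00125). The summed hepatocyte level was 94882 to 119277 CPM in OC.Sed livers and 154880 to 186638 CPM in Con.Sed livers, and 82330 to 119181 CPM in OC.VWR livers and 141260 to 198139 CPM in Con.VWR livers. In sedentary mice Alb, at the mean levels given in the opening, made up most of this sum. Endothelial markers (12 listed) had 0 of 11 tested called by edgeR averaged over activity (2 at an unadjusted p under 0.05, 0 in DESeq2, 0 in limma voom and 3 in voom with sample weights), at sums of 305 to 459 CPM in OC.Sed livers and 311 to 445 CPM in Con.Sed livers, and 269.8 to 469 CPM in OC.VWR livers and 311 to 469 CPM in Con.VWR livers. Of 8 tested macrophage markers (12 listed) Csf1r rose by 0.36 (adjusted p = 0.0142), at sums of 434 to 578 CPM in OC.Sed livers and 396 to 568 CPM in Con.Sed livers, and 380.4 to 528 CPM in OC.VWR livers and 339.5 to 471 CPM in Con.VWR livers.

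Of 8 tested lymphocyte and neutrophil markers (15 listed) 0 rose, 3 fell and 5 did not pass, and Cd79a and Cd79b, which encode parts of the B cell receptor complex, fell by 1.24 and 0.64 (adjusted p = 0.000558 and 0.0448), the second lost in 17 of 28 alternatives. In sedentary mice 0 of the 8 rose and 4 fell (median -0.72, 16.3% of all genes called). In running mice 2 rose and 1 fell (median 0.11, 13.2% called). The interaction passed for 0 of the 8, S100a9 among them, so a difference by activity was not shown. S100a9, a neutrophil gene, averaged 3.74 ± 2.50 CPM in OC.VWR livers and 1.08 ± 0.396 CPM in Con.VWR livers (SD, n = 5 each; log2 fold change 1.78, adjusted p = 0.0105), and was at -0.63 in sedentary mice (adjusted p = 0.344). The summed level of the 9 markers with an intact line was 7.67 to 12.3 CPM in OC.Sed livers and 13.3 to 21.5 CPM in Con.Sed livers, and 6.24 to 20.2 CPM in OC.VWR livers and 8.42 to 11.8 CPM in Con.VWR livers. Of 7 tested cholangiocyte markers (8 listed) Cldn7 fell by 0.63 (adjusted p = 0.0367, lost in 15 of 28 alternatives). The cholangiocyte sums were 80.5 to 133.4 CPM in OC.Sed livers and 67.4 to 151.7 CPM in Con.Sed livers, and 76.6 to 127.9 CPM in OC.VWR livers and 71.3 to 99.2 CPM in Con.VWR livers. Of markers of lung epithelium and smooth muscle, tissues known for Fmo2, 4 of 8 listed had an intact line. Sftpc and Sftpb were at 0 in every library, and neither of the 2 tested genes, Tagln (-0.34, adjusted p = 0.0615) and Sftpa1 (0.67, adjusted p = 0.166), passed averaged over activity, though Tagln was lower in sedentary mice (-0.62, lost in 4 of 29 alternatives) and Sftpa1 higher in running mice (1.45, lost in 20 of 29). Their summed level was 8.67 to 13.9 CPM in OC.Sed livers and 13.4 to 25.5 CPM in Con.Sed livers, and 10.95 to 22.4 CPM in OC.VWR livers and 9.81 to 16.9 CPM in Con.VWR livers. The part of these cell types in the Fmo values was not tested.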

How the data were processed

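Per the labels, libraries were stranded and paired-end and each came from the liver of 1 mouse. Per the submitters' processing notes, STAR, R 4.05, limma and mm10 were used; the counting program, annotation and strand setting are not given in the sources used here. The values are treated here as estimated counts (expected counts) per gene that the authors deposited unscaled, judged from the values. Rounding changed no value used, since all were whole, and the planned test had assumed plain counts. Of 35504 lines 23993 (67.6%) were intact. The others, among them 570 whose counts were moved right by 1 place, were left out except in 1 alternative, which used 19 libraries.

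The tests were run in edgeR 4.0.16 under R 4.3.3 (filterByExpr, TMM factors 0.90 to 1.11, quasi-likelihood fit with 1 mean per group over all 20 libraries). Benjamini-Hochberg adjustment covered all 10207 tested genes, which held 99.95% of counts, at a threshold of 0.05. CPM values are counts per 1000000 of the TMM-scaled total, and every adjusted p is from this test unless another is named. Ratios used counts plus 0.5 in exact two-sided permutation tests (Python 3.11.15), adjusted over 12 tests. Alternatives used DESeq2 1.42.0, limma 3.58.1, other scalings and filters, and each library left out in turn. The steps were tested on simulated data.

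The members and lists were chosen with earlier results of these data known. The text names all 4 members, the 3 candidate genes most like each, and of each list up to 4 called genes by adjusted p and 2 abundant uncalled ones. Some genes of the family and of the lists that this rule names are not reported here.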

Additional observations from a re-analysis of the deposited data

Results flagged for a closer look

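Of 16 sets of 5 livers (4 genes in 4 groups), 2 held a liver far from the other 4, with a gap of more than 0.71 of the group's range; chance flags about 1 set in 20. Fmo5 was at 2625 CPM in OC.VWR replicate 2, where the other 4 livers had 1461 to 1639 CPM. The same liver had the highest Fmo1 and Fmo2 of its group. Fmo4 was at 20.5 CPM in Con.VWR replicate 3, where the other 4 livers had 12.8 to 14.9 CPM. The cause of either value was not tested.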

How the results depend on the processing

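No result reversed its direction past the threshold in any alternative. Under other settings than leaving out a library, Fmo4 in sedentary mice lost its call with library totals alone (-0.47) and with only the 2 groups in the fit (-0.60). In running mice Fmo1 lost its call with library totals alone (-0.42) and with displaced lines moved back (-0.50), and Fmo2 with displaced lines moved back (-0.97). Averaged over activity, Fmo1 gained a call in DESeq2 (-0.30) and in limma voom with sample weights (-0.41). In sedentary mice Fmo2 gained one in limma voom (-1.01) and in its weighted form (-1.35). The cause was not tested. Fmo1 in sedentary mice, which was not called, lay between -0.21 and 0.07 over these settings.

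Leaving out each library in turn, the diet effect in sedentary mice ranged from -1.24 to -0.70 for Fmo2 and from -0.72 to -0.49 for Fmo4. In running mice it ranged from -0.65 to -0.44 for Fmo1, from -1.34 to -0.92 for Fmo2 and from -0.77 to -0.50 for Fmo4, and averaged over activity from -0.36 to -0.25 for Fmo1. Differences in log2 ratio in sedentary mice ranged from 0.83 to 1.17 (Fmo1 to Fmo2), 0.48 to 0.75 (Fmo5 to Fmo1) and 1.38 to 1.83 (Fmo5 to Fmo2), and in running mice from 0.50 to 0.74 (Fmo1 to Fmo2) and 0.38 to 0.71 (Fmo4 to Fmo2).

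The count of all genes called in sedentary mice was 998 without OC.Sed replicate 1, and in running mice 817 and 835 without OC.VWR replicates 1 and 3 and 2224 in limma voom with sample weights. With library totals alone the median diet effect over all genes lay at 0.10 in sedentary mice, 0.12 in running mice and 0.115 averaged over activity on the log2 scale. No paired analysis was possible because the labels give no replicate numbers that link mice across groups. Fmo4, at 110 to 306 counts per library, was the most thinly counted of the 4 genes, and Fmo2 had the largest standard error in each diet contrast.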
